A study of Rattus norvegicus with 28 samples.

Results

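The response of rat hepatocytes to a higher dose of TCDF was measured as a dose step. For every gene, the log2 ratio of treated over solvent RNA at TCDF 0.1 nM was subtracted from the same ratio at TCDF 10 nM. The step rests on 8 of the 28 arrays of the series, namely the 4 labelled TCDF 10 nM and the 4 labelled TCDF 0.1 nM. Each dose was given to cells of 2 rats (A and B), and each RNA was hybridised in both dye orientations. The orientations of a rat were averaged, so a value at a dose has n = 2 rats. Hepatocytes came from adult female Sprague-Dawley rats of no stated genotype, were plated on Matrigel, and were cultured for 48 h with ITS+ (insulin, transferrin and selenium) and 0.1 uM dexamethasone. They were then exposed for 24 h in 0.1% DMSO. The other groups were untreated cells, TCDD 0.01 and 1 nM and PeCDF 0.02 and 2 nM, and every array set a test RNA against DMSO RNA of the same rat, so all cells, controls included, had received dexamethasone and insulin. RNA of 3 dishes was pooled before hybridisation, and with only 2 rats the errors below measure a narrow sample of animals.

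TCDF is a tetrachlorinated dibenzofuran, a flat ring system related to the dioxin TCDD. Such compounds bind the aryl hydrocarbon receptor (AHR), which moves to the nucleus, pairs with ARNT and binds DNA at elements with the core GCGTG, and this induces the AHR battery of detoxifying enzymes. In liver, strong activation of the receptor is also known to lower enzymes of glucose and lipid metabolism.

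Few genes differed between the doses beyond the spread between rats, which was pooled over all 7 groups of the series. Most of those genes were lower at 10 nM. Cyp1b1, an oestrogen-oxidising cytochrome of the AHR battery, Ddit4l, an inhibitor of mTOR signalling, and Lect2, a protein secreted by hepatocytes, were higher at 10 nM. Enzymes and carriers of fructose and glucose metabolism were the most numerous among the lower genes. Of 34808 genes tested with limma, 1580 had an unadjusted p under 0.05, fewer than the share of 0.05 expected if no gene differed. A Benjamini-Hochberg adjusted p under 0.05 (called hereafter) was reached by 31, which is 0.0891% of the genes tested. Of these, 6 were higher (0.0172%) and 25 were lower (0.0718%) at 10 nM. In 23 the gene had a symbol, 3 of the higher and 20 of the lower. The median step of the 25 lower genes was -0.64, with a range of -1.41 to -0.36, and that of the 6 higher genes was 0.71, with a range of 0.55 to 1.83. All 6 higher genes and 24 of the 25 lower genes had 4 arrays at 10 nM that did not overlap the 4 at 0.1 nM. Of all genes, 3.06% lay wholly above and 2.12% wholly below. The calls were made on these same arrays, so the lack of overlap largely follows from them and adds no separate support.

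**Figure D1:**
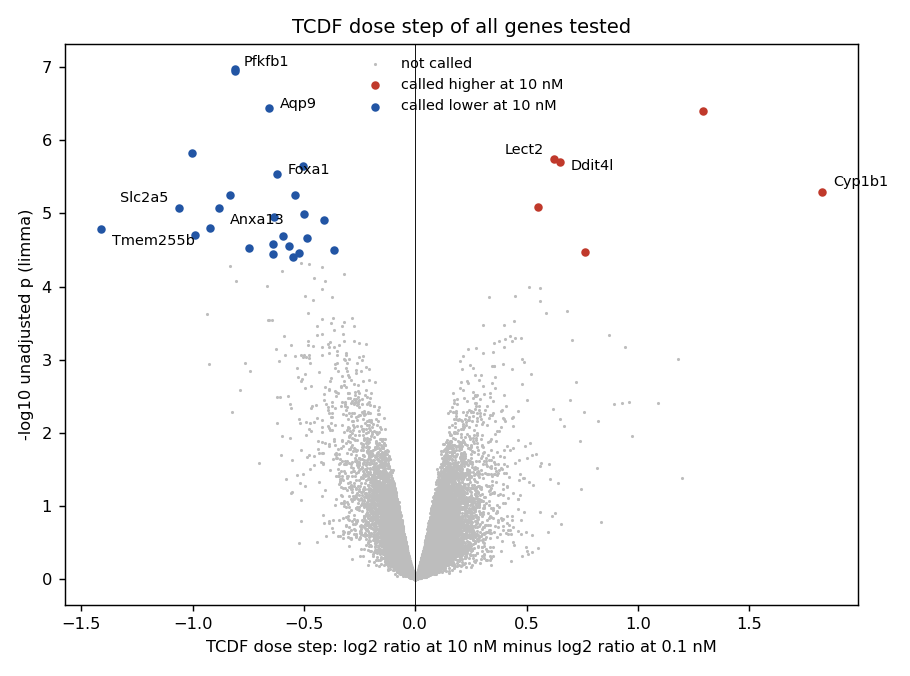
TCDF dose step (log2, x axis) against -log10 of limma's unadjusted p (y axis) for the 34808 genes tested, with called genes in red (6, higher at 10 nM) and blue (25, lower at 10 nM). The called genes reach from -1.41 for Tmem255b to 1.83 for Cyp1b1, and most lie on the lower side.

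The number of calls depended on single libraries. Without rat A at both doses, or without rat A at 10 nM alone, limma called 0 genes, with 880 and 1182 at an unadjusted p under 0.05. Without rat B at both doses 17 genes were called, of which 2 were among the 31. The count was 57 without rat B at 10 nM and 19, with 11 higher and 8 lower, without rat B at 0.1 nM. Without rat A at 0.1 nM it was 32, with 21 higher and 11 lower. All 31 genes kept their sign in each of these fits. They were called on these same arrays, so the kept signs are no independent check. A replicate block for the animal gave 40 calls, and a block for the animal inside each Feature Extraction session gave 102.

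The size of the steps depended on the scaling. Under median centring of each array in place of loess, limma called 0 genes, with 4234 at an unadjusted p under 0.05, of which 10 were among the 31. There the median step of the 25 lower genes went from -0.64 to -0.23, and in 23 of the 25 it was over 1.5 times smaller or changed sign, while the median of the 6 higher genes went from 0.71 to 1.15. The step of Cyp2b3 went from -0.49 to -0.04, that of St6gal1 from -0.52 to -0.07, that of Acaca from -0.57 to -0.12 and that of Gys2 from -0.64 to -0.18. The steps of Tmem255b and Slc2a5 were -1.05 and -0.81 there, less than 1.5 times smaller than with loess. Without background correction 27 genes were called, 18 of them among the 31. The calls lost there included Cyp1b1 (adjusted p = 0.126), Tmem255b (0.0867), Slc2a5 (0.077), Zfp354a (0.119), Zap70 (0.0867), Gys2 (0.0643), Acaca (0.0867), St6gal1 (0.0608) and Cyp2b3 (0.107).

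At 0.1 nM alone, 1 of 34816 genes was called against DMSO (0.00287%), which was Cyp1a1, and at 10 nM 826 of 34809 were (2.37%), with 388 higher (1.11%) and 438 lower (1.26%). For the 25 genes lower at 10 nM the median log2 ratio was -0.07 at 0.1 nM and -0.80 at 10 nM. For the 6 higher genes it was 0.16 and 0.79.

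Of the 3 named genes that were higher at 10 nM, promoters of Cyp1b1 and Ddit4l held the GCGTG core and that of Lect2 did not. They are shown because they let the induced genes be set against a letter search for the AHR core. Each run is the 250 bases before the RefSeq start in GRCr8, 5′ to 3′ on the gene's strand, with GCGTG or its reverse complement CACGC in capitals. Cyp1b1 lies at chr6:21094315-21094564 on the plus strand, with GCGTG 20 and CACGC 81 bases before the start. Ddit4l lies at chr2:228801457-228801706 on the plus strand, with GCGTG 60 bases before the start. Lect2 lies at chr17:8049784-8050033 on the plus strand.
Cyp1b1: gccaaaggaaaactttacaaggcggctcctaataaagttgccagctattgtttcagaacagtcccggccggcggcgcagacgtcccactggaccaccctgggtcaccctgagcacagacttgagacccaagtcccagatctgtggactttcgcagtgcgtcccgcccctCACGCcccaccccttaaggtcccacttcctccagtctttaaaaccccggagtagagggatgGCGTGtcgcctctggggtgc
Ddit4l: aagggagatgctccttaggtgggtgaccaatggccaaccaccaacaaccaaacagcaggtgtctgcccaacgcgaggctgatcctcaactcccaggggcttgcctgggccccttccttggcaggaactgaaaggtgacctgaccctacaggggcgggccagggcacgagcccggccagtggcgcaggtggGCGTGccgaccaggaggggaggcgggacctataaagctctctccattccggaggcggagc
Lect2: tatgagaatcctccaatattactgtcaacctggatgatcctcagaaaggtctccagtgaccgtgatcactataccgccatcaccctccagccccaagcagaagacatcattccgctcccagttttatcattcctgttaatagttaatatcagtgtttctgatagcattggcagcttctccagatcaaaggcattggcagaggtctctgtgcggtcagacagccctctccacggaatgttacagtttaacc

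Cyp1b1 had log2 ratios at 10 nM of 2.45 and 1.76 in rat A and of 2.01 and 2.08 in rat B, where here and below the first value of a rat has the test RNA in Alexa647 and the second in Alexa555. At 0.1 nM they were 0.44 and 0.68 in rat A and -0.10 and -0.03 in rat B. All arrays at 10 nM lay far above those at 0.1 nM, and at 0.1 nM rat A lay above rat B. The step was 1.83 ± 0.21 (log2, standard error here and throughout), a 3.55-fold difference, with limma's adjusted p = 0.0164. Another, dimmer probe of Cyp1b1 gave a step of only 0.39 ± 0.14 (adjusted p = 0.875 with every probe on its own). The DMSO channel of the probe used was well above background on 3 of the 4 arrays at 0.1 nM. A stricter filter asked for both channels well above background on all 8 TCDF arrays. The probe used did not pass it, and the dimmer probe stood for Cyp1b1. Its step was 0.39 there and was not called (limma's adjusted p = 0.773).

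Ddit4l had ratios of 0.97 and 0.86 in rat A and 0.75 and 0.62 in rat B at 10 nM. At 0.1 nM it had 0.21 and 0.10 in rat A and 0.16 and 0.13 in rat B. The doses were wide apart in both rats, and the step was 0.65 ± 0.07, or 1.57-fold (adjusted p = 0.00977). Lect2 had 0.79 and 0.72 in rat A and 0.81 and 0.82 in rat B at 10 nM, against 0.24 and 0.24 in rat A and 0.06 and 0.10 in rat B at 0.1 nM. Rats and dyes gave similar values at 10 nM, and the step was 0.62 ± 0.06, or 1.54-fold (adjusted p = 0.00977).

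The remaining 3 higher transcripts had no symbol in the RefSeq names used here and were picked out after their values were seen. AB084894, which the array files describe as a cytochrome P450 3A mRNA, had 1.46 and 1.66 in rat A and 1.40 and 1.5 in rat B at 10 nM. Its ratios at 0.1 nM were 0.18 and 0.27 in rat A and 0.14 and 0.24 in rat B, so the doses were clearly apart. Its step of 1.29 ± 0.11 (adjusted p = 0.00345) was larger than that of every called gene except Cyp1b1 and Tmem255b. Near-identical copies of this P450 family may share its probe. The expressed sequence tag BF557572 had a step of 0.76 ± 0.11 and TC462821, described as similar to part of a coronin, 0.55 ± 0.07.

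**Figure D2:**
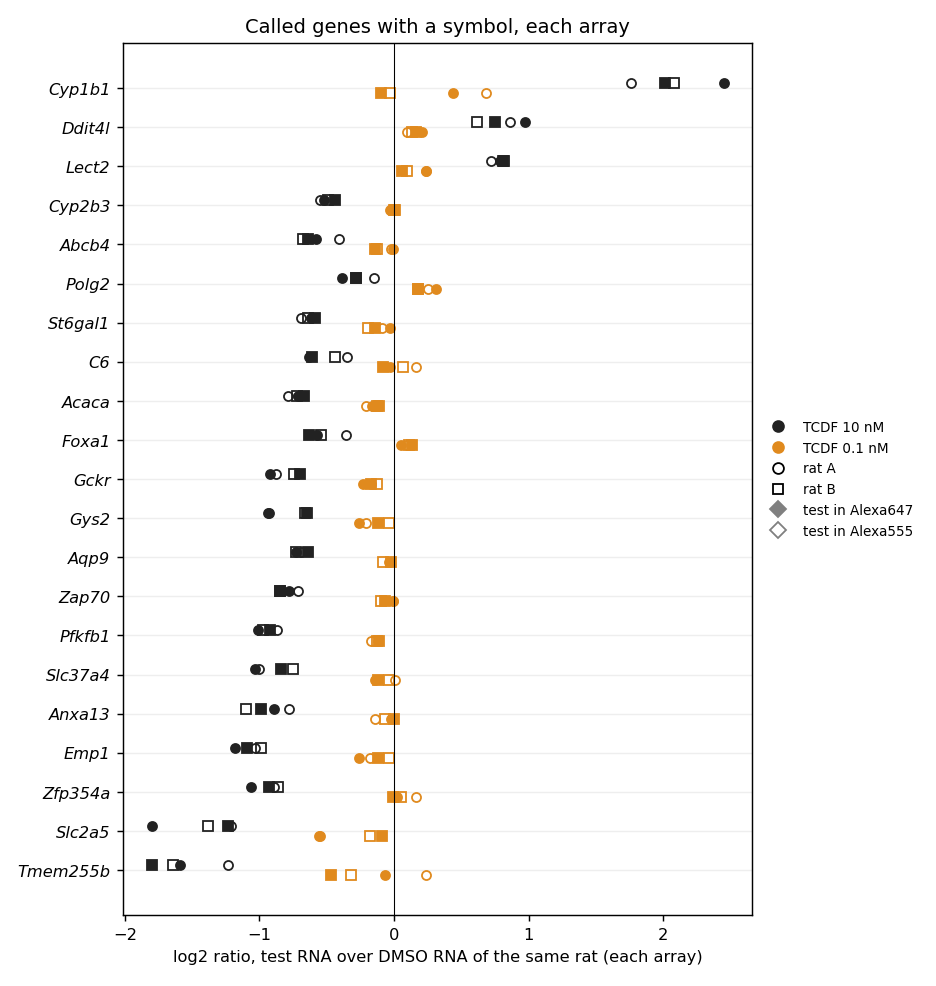
Log2 ratio of test over DMSO RNA (x axis) on each of the 8 arrays for 21 of the 23 called genes with a symbol, black for TCDF 10 nM and orange for 0.1 nM, circles for rat A and squares for rat B, filled where the test RNA was in Alexa647 and open where it was in Alexa555. In each of the genes shown, which were chosen for arrays that do not overlap, the black points lie apart from the orange ones. The black points lie to the right in 3 genes and to the left in the others.

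Most of the AHR battery was higher at 10 nM on every array, but few members passed the test over all genes. Of the 14 genes of the list, 12 were measured (Ahrr and Ugt1a7c were not). Of these 1, Cyp1b1, was called, against 0.0172% of all genes called higher. In 9 of the 12 the 4 arrays at 10 nM lay wholly above the 4 at 0.1 nM, against 3.06% of all genes. The median step of the 12 was 0.78, against 0.00 for all genes tested, and it was positive under each scaling tried, from 0.62 to 1.18.

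Nqo1, a quinone reductase, had 1.42 and 1.42 in rat A and 1.52 and 1.42 in rat B at 10 nM. At 0.1 nM it had 0.02 and -0.06 in rat A and 0.57 and 0.52 in rat B. The rats were alike at 10 nM and apart at 0.1 nM, and the step of 1.18 ± 0.26 had an adjusted p = 0.278. Ugt1a6, which glucuronidates phenols, showed the same layout, with 1.18 and 1.09 in rat A and 1.27 and 1.11 in rat B at 10 nM and 0.07 and -0.19 in rat A and 0.61 and 0.45 in rat B at 0.1 nM. Its step was 0.93 ± 0.25 (adjusted p = 0.526), and probes of the Ugt1a cluster can share sequence. Aldh3a1, an aldehyde dehydrogenase, was the reverse. At 10 nM it had 0.53 and 0.58 in rat A against 1.73 and 1.75 in rat B, and at 0.1 nM all 4 values lay from -0.09 to 0.02. Its step was thus 0.57 in rat A and 1.82 in rat B, and 1.20 ± 0.51 over both (adjusted p = 1.00).

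Cyp1a1, the classic AHR target, gave no readable step. Its test channel was saturated on 4 of 4 arrays at 10 nM and on 3 of 4 at 0.1 nM, so 7 of its 8 ratios rest on a saturated spot. The ratios were 2.08 and 0.92 in rat A and 1.5 and 1.06 in rat B at 10 nM, and 1.03 and 1.56 in rat A and 1.00 and 1.39 in rat B at 0.1 nM. The doses overlapped, and the measured step was 0.15 ± 0.16. At 0.1 nM it stood 1.24 ± 0.11 above DMSO (adjusted p = 0.048), a mean over saturated spots and 1 that was not. Cyp1a2, which oxidises caffeine, had 1.62 and 0.97 in rat A and 1.82 and 2.01 in rat B at 10 nM, with 3 of 4 test channels saturated. At 0.1 nM it had from 0.71 to 0.78 on all 4 arrays, unsaturated. Its step of 0.87 ± 0.17 (adjusted p = 0.217) thus sets saturated spots at 10 nM against unsaturated ones at 0.1 nM, and an unsaturated probe of the gene gave 1.74 ± 0.25 (adjusted p = 0.0462 with every probe on its own).

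The other battery genes had smaller or less even steps, none of them called. Gsta2, a glutathione transferase with close copies, had 0.82 ± 0.33, and Tiparp, an ADP-ribosyltransferase that restrains the receptor, 0.74 ± 0.35. Ugdh, which makes UDP-glucuronic acid, had 0.50 ± 0.13, and Nfe2l2, the oxidant-response regulator NRF2, 0.34 ± 0.13. For all 4 genes the arrays of the doses were apart. Slc7a5, an amino acid carrier, had -0.01 ± 0.09 and Cyp2s1 -0.05 ± 0.05, with overlapping arrays. The 95% intervals of these steps were -0.20 to 0.19 and -0.16 to 0.06.

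**Figure D3:**
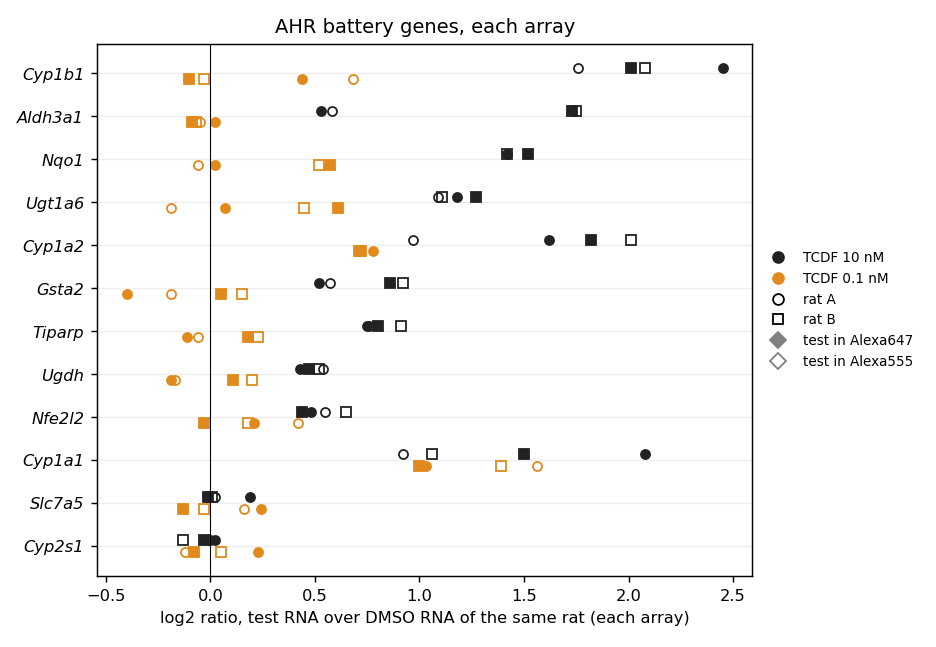
Log2 ratio of test over DMSO RNA (x axis) on each of the 8 arrays for the 12 measured AHR battery genes, black for TCDF 10 nM and orange for 0.1 nM, circles for rat A and squares for rat B, filled where the test RNA was in Alexa647 and open where it was in Alexa555. In 9 genes all black points lie right of all orange points, and Cyp1a1, saturated on 4 of 4 arrays at 10 nM and 3 of 4 at 0.1 nM, overlaps.

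For the 14 battery genes, 12 had a promoter among those supplied and 9 held the core on either strand (75%). Among the called genes with a symbol, it was in 2 of 3 promoters of higher genes (66.7%) and in 3 of 15 of lower genes (20%), with no promoter among those supplied for the remaining 5 lower genes. Of all 27457 genes with a promoter, 28.4% held it. Those 3 were Abcb4, Gckr and Slc37a4. Nqo1 is printed as a battery gene whose arrays were apart, and it holds CACGC 10 bases before the start, at chr19:52220268-52220517 on the minus strand. Pfkfb1, at chrX:22941926-22942175 on the plus strand, holds neither form and had 1 of the smallest p-values among the called decreases. Gckr, at chr6:30795628-30795877 on the minus strand, is a lower gene that holds GCGTG, 170 bases before the start.
Nqo1: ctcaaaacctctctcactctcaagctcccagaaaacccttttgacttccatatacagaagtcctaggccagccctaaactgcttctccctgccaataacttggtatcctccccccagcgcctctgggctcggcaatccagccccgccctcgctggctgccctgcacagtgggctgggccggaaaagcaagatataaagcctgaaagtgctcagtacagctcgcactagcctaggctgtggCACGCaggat
Pfkfb1: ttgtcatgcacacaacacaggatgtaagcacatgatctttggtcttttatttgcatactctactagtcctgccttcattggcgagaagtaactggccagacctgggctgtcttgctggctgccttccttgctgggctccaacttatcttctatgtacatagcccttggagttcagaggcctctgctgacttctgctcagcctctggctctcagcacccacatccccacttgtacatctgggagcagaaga
Gckr: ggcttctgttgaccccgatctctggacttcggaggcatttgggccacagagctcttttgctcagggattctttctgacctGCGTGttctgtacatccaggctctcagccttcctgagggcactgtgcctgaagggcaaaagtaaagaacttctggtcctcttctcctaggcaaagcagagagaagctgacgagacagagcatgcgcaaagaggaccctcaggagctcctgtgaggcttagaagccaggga

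The receptor complex itself did not pass. Of 9 measured genes of the AHR complex 0 were called by limma, and 1 had an unadjusted p under 0.05 (against 1580 of all 34808). In 2 of these 9 genes the arrays at 10 nM lay wholly above those at 0.1 nM and in 0 wholly below, against 3.06% and 2.12% of all genes. Their median step was 0.01 (-0.03 on Agilent's log ratio and 0.30 under median centring). Ahr, the receptor, had a step of -0.06 ± 0.07, with a 95% interval of -0.22 to 0.10, and Arnt, its partner, -0.04 ± 0.06. Hsp90ab1, a chaperone that holds the receptor in the cytosol, had 0.28 ± 0.11 (adjusted p = 1.00), with arrays that did not overlap.

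Genes of glucose and fructose metabolism held more calls than any other list. Of 26 measured, 6 were called lower (against 0.0718% of all genes) and 0 higher, and in 11 the arrays at 10 nM lay wholly below those at 0.1 nM (against 2.12%). The median step was -0.30, and it was below 0 under each scaling tried, from -0.33 to -0.05. Among the 6 were Slc2a5, Slc37a4, Pfkfb1, Gys2 and Gckr. These counts are a description of a list, not a test of it.

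Pfkfb1, a liver enzyme of glycolytic control, had -1.01 and -0.87 in rat A and -0.92 and -0.97 in rat B at 10 nM. At 0.1 nM it had -0.12 and -0.17 in rat A and -0.11 and -0.13 in rat B. Rats and dyes gave nearly the same value at each dose, and the step was -0.81 ± 0.06, a 1.75-fold difference (adjusted p = 0.00197). Slc2a5, the fructose transporter GLUT5, had -1.80 and -1.21 in rat A and -1.23 and -1.38 in rat B at 10 nM, and -0.55 and -0.56 in rat A and -0.09 and -0.18 in rat B at 0.1 nM. Rat A was thus lower than rat B at 0.1 nM, and the step was -1.06 ± 0.13, or 2.09-fold (adjusted p = 0.0196).

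Slc37a4, the glucose 6-phosphate carrier of the endoplasmic reticulum, had -1.03 and -1.0 in rat A and -0.84 and -0.75 in rat B at 10 nM, and from -0.14 to 0.01 on the 4 arrays at 0.1 nM. Its step was -0.83 ± 0.10 (adjusted p = 0.0164), and another probe gave -0.81. Gckr, the inhibitor of glucokinase, ran from -0.92 to -0.70 at 10 nM and from -0.23 to -0.13 at 0.1 nM, with a step of -0.63 ± 0.08. Gys2, liver glycogen synthase, ran from -0.94 to -0.65 at 10 nM and from -0.26 to -0.04 at 0.1 nM, with a step of -0.64 ± 0.09. A dimmer probe of Gys2 gave -0.45 ± 0.07 (adjusted p = 0.0623 with every probe on its own). In Gckr, Gys2 and Slc37a4 rat A was the lower rat at 10 nM in both dyes.

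Fbp1, a gluconeogenic phosphatase singled out after its values were seen, lay just outside the threshold with a step of -0.51 ± 0.08 (adjusted p = 0.0514).

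**Figure D4:**
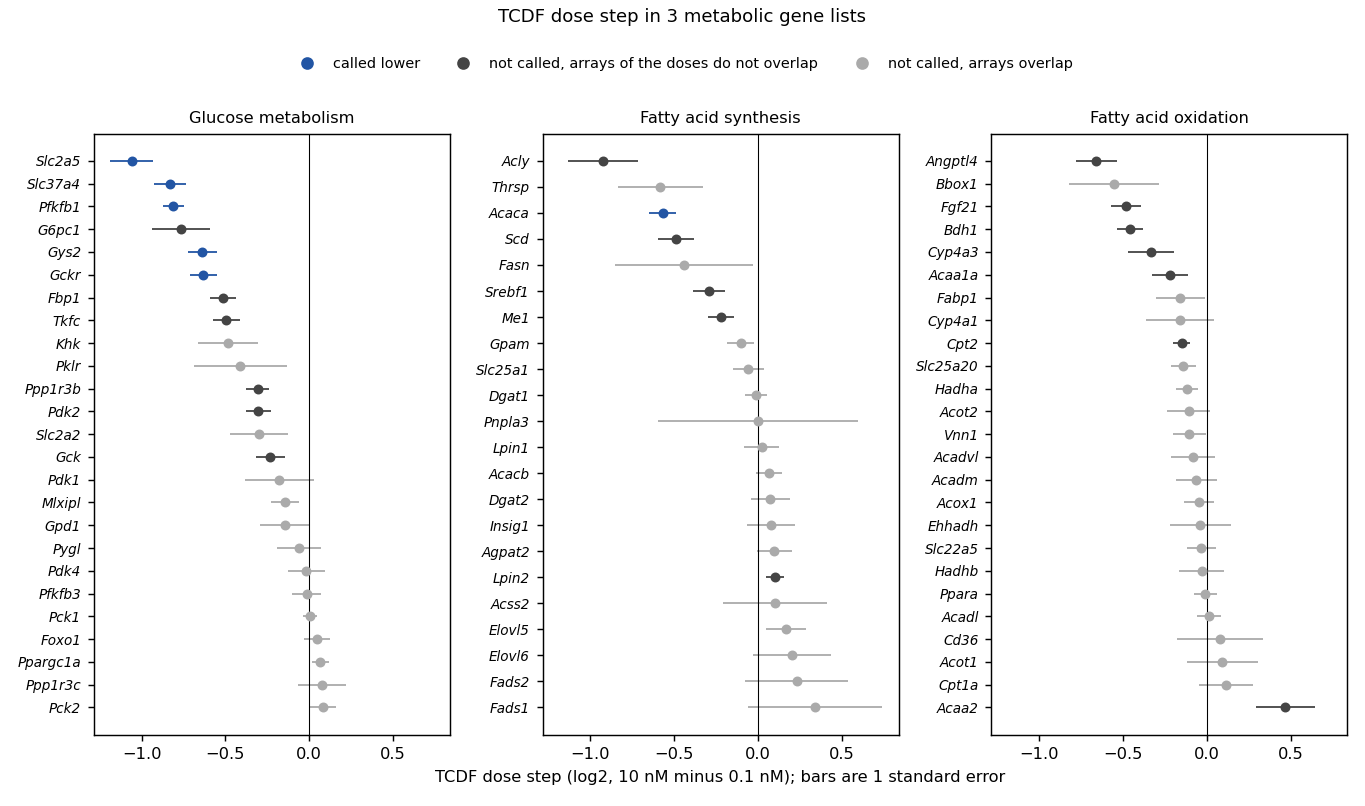
TCDF dose step (log2, x axis, bars 1 standard error) of measured members of 3 lists, blue where called lower, dark grey where not called although the arrays of the doses did not overlap, and light grey otherwise. Of the genes shown, 5 of 25 in glucose metabolism are called lower, 1 of 22 in fatty acid synthesis and 0 of 25 in fatty acid oxidation.

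Acaca was the one called gene of fatty acid synthesis. Of 22 measured genes 1 was called lower, Acaca (against 0.0718% of all genes), and in 5 the arrays at 10 nM lay wholly below those at 0.1 nM (against 2.12%) and in 1 wholly above (against 3.06%). The median step was 0.01, with -0.05 on Agilent's log ratio and 0.27 under median centring. Acaca, acetyl-CoA carboxylase of the cytosol, ran from -0.79 to -0.67 at 10 nM and from -0.21 to -0.11 at 0.1 nM, with a step of -0.57 ± 0.08 (adjusted p = 0.0389, and 0.0547 with the animal as a block). A second probe of Acaca gave -0.01 ± 0.08, so the probes of this gene disagreed. Acly, which makes cytosolic acetyl-CoA, had -1.46 and -1.53 in rat A and -1.03 and -1.04 in rat B at 10 nM, and -0.67 and -0.64 in rat A and 0.00 and -0.05 in rat B at 0.1 nM. Rat A was lower than rat B at both doses, and its DMSO channel was saturated on 1 of 4 arrays at either dose. The step of -0.93 ± 0.21 had an adjusted p = 0.293 without the animal in the fit and 0.0349 with the animal as a block. Scd, a desaturase whose DMSO channel was saturated on 2 of 4 arrays at 10 nM and 1 of 4 at 0.1 nM, had -0.49 ± 0.11, and Srebf1, the regulator SREBP-1, -0.29 ± 0.09, neither of them called, and the step of Srebf1 turned to 0.15 under median centring.

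Fatty acid oxidation and PPARA targets had 0 calls among 26 measured genes with limma and 7 at an unadjusted p under 0.05 (against 1580 of all 34808). At 10 nM 7 lay wholly below (against 2.12% of all genes) and 1 wholly above (against 3.06%). The median step was -0.11, and it turned to 0.28 under median centring in place of loess. Angptl4, an inhibitor of lipoprotein lipase, had -0.66 ± 0.12 (adjusted p = 0.167, and 0.0492 with the animal as a block). Bdh1, of ketone body metabolism, had -0.46 ± 0.08 and the fasting hormone Fgf21 -0.48 ± 0.09.

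Among the 23 measured liver transcription factors 2 were called lower (against 0.0718% of all genes) and 0 higher, and the median step was -0.04 (0.17 under median centring). Foxa1, a pioneer factor of liver development, had -0.57 and -0.36 in rat A and -0.63 and -0.54 in rat B at 10 nM, and from 0.05 to 0.13 on the 4 arrays at 0.1 nM. At 0.1 nM it was 0.10 ± 0.05 above DMSO, which was not called (adjusted p = 0.709), and the step was -0.62 ± 0.07 (adjusted p = 0.0111). Zfp354a, a zinc finger protein, had -1.06 and -0.89 in rat A and -0.93 and -0.86 in rat B at 10 nM, and from -0.01 to 0.16 at 0.1 nM. Its step was -0.99 ± 0.13 (adjusted p = 0.0319). Onecut1, or HNF6, had a step of -0.82 ± 0.23 (adjusted p = 0.571), and here the rats differed at 0.1 nM, with -0.01 and -0.09 in rat A and -0.56 and -0.64 in rat B.

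The decrease of largest size was in Tmem255b, a little studied membrane protein. It had -1.59 and -1.23 in rat A and -1.80 and -1.64 in rat B at 10 nM, and -0.07 and 0.24 in rat A and -0.47 and -0.32 in rat B at 0.1 nM. Rat B lay below rat A at both doses in each dye, and the step was -1.41 ± 0.19, or 2.66-fold (adjusted p = 0.0284). Emp1, an epithelial membrane protein, ran from -1.18 to -0.99 at 10 nM and from -0.26 to -0.04 at 0.1 nM, with a step of -0.92 ± 0.12. Its second probe gave -0.13 ± 0.14, so the probes disagreed. Anxa13, an annexin of epithelial cells that is also on the cholangiocyte marker list, ran from -1.10 to -0.78 and from -0.14 to 0.00, with a step of -0.88 ± 0.11.

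Aqp9, the glycerol channel of hepatocytes, had -0.73 and -0.69 in rat A and -0.64 and -0.73 in rat B at 10 nM, and from -0.08 to -0.02 at 0.1 nM. The step was -0.66 ± 0.06 (adjusted p = 0.00345). The 4 arrays of each dose lay within a narrow range.

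Other called genes with a symbol had steps between -0.75 and -0.49. Zap70, a kinase of T cell receptor signalling, had -0.75 ± 0.11, and ran from -0.85 to -0.71 at 10 nM and from -0.10 to -0.01 at 0.1 nM. C6, a complement component, had -0.54 ± 0.06, and St6gal1, a sialyltransferase, -0.52 ± 0.07 (-0.09 ± 0.16 on its second probe). Polg2, the accessory subunit of the mitochondrial DNA polymerase, had -0.51 ± 0.05, with -0.28 against DMSO at 10 nM (adjusted p = 0.00604) and 0.23 at 0.1 nM, the latter not called (adjusted p = 0.257). Abcb4, the phospholipid exporter of bile, had -0.50 ± 0.06, and Cyp2b3, a cytochrome with close copies, -0.49 ± 0.07. With the animal as a block Acaca and St6gal1 had adjusted p = 0.0547 and 0.056, and BF557572 and TC488931 had 0.0596 and 0.056, while every other called gene stayed under 0.05. Of 5 lower transcripts without a symbol, seen in the values first, TC489628 had the largest step, -1.0 ± 0.10, and TC478611 the smallest of all calls, -0.36 ± 0.05, which is also the sole call whose sign turned under median centring, to 0.06.

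Of the 31 lists compared, 7 held a called gene and 24 held 0 by limma. In those 24 lists 75 measured members had an unadjusted p under 0.05, and of all 34808 genes tested 1580 did. The lists hold far fewer genes than were tested, so the 75 are the larger share. The lists were chosen with earlier results of these data known. Abcb4 was the only call of 26 measured genes for bile acids and hepatic transport, where 7 lay wholly below and 3 wholly above, against 2.12% and 3.06% of all genes, of which 0.0718% were called lower. Cyp2b3 was the only call of 15 CAR and PXR targets, of which 6 lay wholly below (against 2.12%). The median steps of these 2 lists, -0.17 and -0.14, turned to 0.10 and 0.11 under median centring. In the 20 conjugating enzymes 5 lay wholly below (against 2.12%) and the median of -0.22 turned to 0.11. With the genes in 5 equal groups by brightness, the median step without loess was -0.16 in the dimmest group and 0.43 in the brightest, against 0.00 and 0.02 with loess.

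Named by smallest p in lists without a call, Cyp4f4, a fatty acid hydroxylase, had a step of -0.67 ± 0.11 (adjusted p = 0.0843) and Sult2a6, a sulfotransferase, -0.58 ± 0.13. Cyp2a1, a steroid hydroxylase, was on the higher side at 1.09 ± 0.29 (adjusted p = 0.526). It had 1.07 and 1.11 in rat A and 1.30 and 1.34 in rat B at 10 nM and -0.23 and -0.23 in rat A and 0.46 and 0.47 in rat B at 0.1 nM. The rats again lay further apart at 0.1 nM than at 10 nM, as for Nqo1 and Ugt1a6. In the 25 NRF2 targets 7 lay wholly above and 1 wholly below (against 3.06% and 2.12% of all genes), led by Txnrd1, thioredoxin reductase, at 0.44 ± 0.08 (adjusted p = 0.167). In cholesterol synthesis 3 of 25 genes lay wholly above and 0 below, with a median step of 0.15, and of 38 respiratory chain genes 4 lay wholly below and 0 above, against the same shares. The median step of the respiratory chain was -0.09, and it turned to 0.36 under median centring. The lists of constitutive cytochromes, glutathione transferases, nuclear receptors, secreted proteins, EGF receptor ligands, chemokines, the IGF axis, cell cycle and p53, unfolded protein response, immediate early, clock, retinoid and heme and iron genes had median steps from -0.06 to 0.05, and from 0.04 to 0.47 under median centring.

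Plasma protein and signalling genes were mixed and not called. Of 37 acute phase and coagulation genes 4 lay wholly above and 6 wholly below (against 3.06% and 2.12% of all genes), with Lbp, which binds bacterial lipopolysaccharide, at 0.40 ± 0.08 and coagulation factor F11 at -0.63 ± 0.13. Serpind1, or heparin cofactor II, had -0.66 ± 0.12, and Il6r, the interleukin 6 receptor, -0.53 ± 0.12. Cxcl1, a neutrophil attractant, had 1.63 and 1.60 in rat A and 0.76 and 0.76 in rat B at 10 nM, and 0.47 and 0.54 in rat A and -0.10 and -0.06 in rat B at 0.1 nM. Rat A was the higher rat at both doses, and the step was 0.97 ± 0.31 (adjusted p = 0.778). Ccn2, a matricellular growth factor, ran from -1.46 to -1.13 at 10 nM and from -0.62 to -0.50 at 0.1 nM, with a step of -0.79 ± 0.20 (adjusted p = 0.455).

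All 12 measured hepatocyte markers were well above background on all 8 arrays, and so were most markers of other liver cells. Well above background on all 8 arrays were 18 of 19 measured Kupffer cell and leukocyte markers, 17 of 17 of stellate cells and fibroblasts, 12 of 13 of endothelium and 13 of 15 of cholangiocytes. Genes counted as measured had already passed a background filter. Of all probes, 80.9 to 100% were well above background in the test RNA of these arrays. The marker counts thus do not show which cell types were present. The summed level of the Kupffer cell and leukocyte list over DMSO ran from -0.16 to 0.01 (log2) at 10 nM and from -0.11 to 0.19 at 0.1 nM, and that of cholangiocyte markers, with Anxa13 in it, from -0.19 to -0.10 and from -0.15 to 0.08. The stellate list ran from -0.17 to -0.05 and from -0.08 to -0.05, and the endothelial list from -0.09 to 0.08 and from -0.15 to 0.13. The hepatocyte list, which holds saturated spots, ran from -0.54 to 0.55 and from -0.59 to 0.51. Of the 19 Kupffer cell and leukocyte markers 3 lay wholly below at 10 nM (Lyz2, C1qc and Vsig4) and 0 above, against 2.12% and 3.06% of all genes. Cd14 had the highest step of the list, 0.56 ± 0.22, with overlapping arrays, and 0.41 ± 0.23 on its second probe. Against DMSO at 10 nM Cd14 was called higher (0.68, limma's adjusted p = 0.0495). In the step 0 of these 19 markers were called by limma and 2 had an unadjusted p under 0.05, against 1580 of all 34808 genes. Their median step was -0.11, and 0.21 under median centring. The summed ranges of the doses met in each list, and the part of these cells in the steps of Zap70 and Anxa13 was not tested. In such cultures fewer cells of a type and less RNA per cell cannot be told apart.

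The 3 compounds were each given at a lower and an upper dose, at different concentrations, so their steps are set side by side without a test between compounds. The TCDD step called 1303 of 34815 genes (3.74%), 485 higher (1.39%) and 818 lower (2.35%). The PeCDF step called 29 of 34800 (0.0833%), 9 higher (0.0259%) and 20 lower (0.0575%). The 3 steps share the rat labels and may share DMSO RNA, so each compound's own step is given. The standard errors rest on 1 spread pooled over all 7 groups and do not show how far the rats of each compound differed. For Cyp1b1 the step was 3.99 ± 0.21 with TCDD, 1.83 ± 0.21 with TCDF and 2.79 ± 0.21 with PeCDF. For Pfkfb1 it was -1.53 ± 0.06, -0.81 ± 0.06 and -0.60 ± 0.06 in the same order. Slc2a5 had -1.56 ± 0.13, -1.06 ± 0.13 and -1.23 ± 0.13, and Tmem255b -1.90 ± 0.19, -1.41 ± 0.19 and -1.14 ± 0.19. Lect2 had 0.97 ± 0.06, 0.62 ± 0.06 and 0.93 ± 0.06. Polg2 had -0.60 ± 0.05, -0.51 ± 0.05 and -0.17 ± 0.05, the last with an adjusted p = 0.58.

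**Figure D5:**
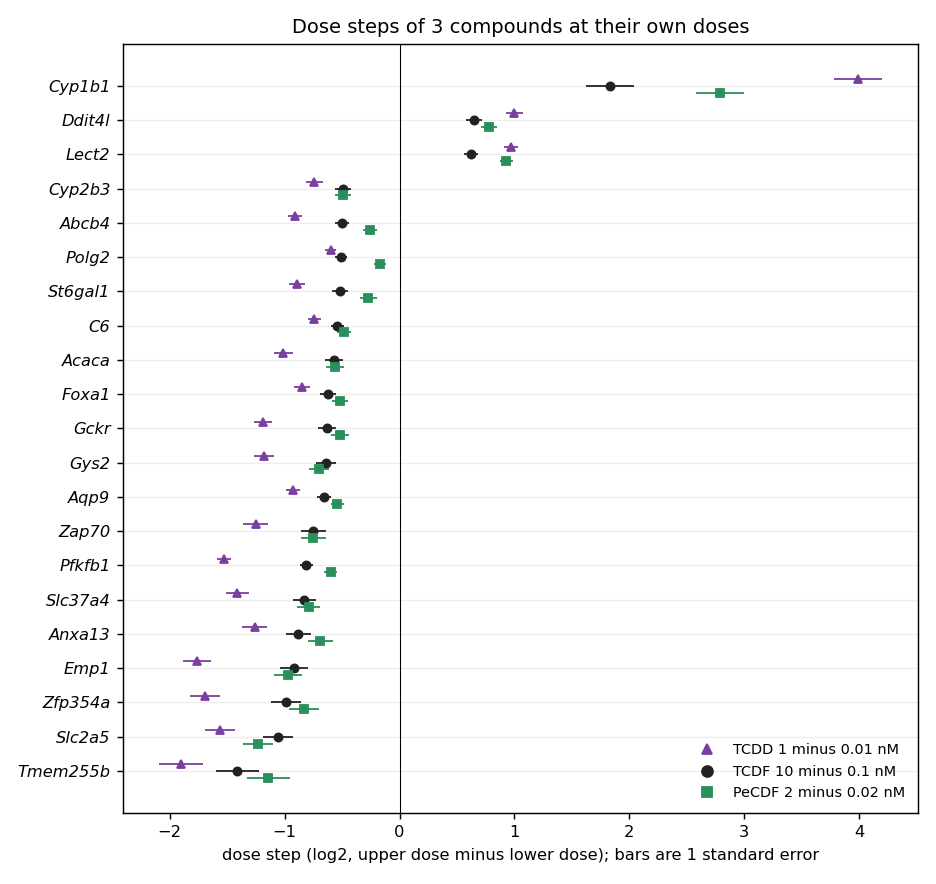
Dose step (log2, upper minus lower dose, x axis, bars 1 standard error) of 21 of the 23 called genes with a symbol, with purple triangles for TCDD 1 minus 0.01 nM, black circles for TCDF 10 minus 0.1 nM and green squares for PeCDF 2 minus 0.02 nM. Cyp1b1 has the highest value for each compound, with 3.99, 1.83 and 2.79, and the doses of the compounds differ. The standard errors rest on 1 spread pooled over all 7 groups.

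Per the file headers TCDD arrays were read with Feature Extraction in another session than the TCDF and PeCDF arrays, so compound and session cannot be told apart there. Both TCDF doses of a dye orientation were read on the same day, so a dye or reading-day effect that is equal at both doses cancels within the step. An effect that differs between doses does not cancel. The step of saturated Cyp1a1 was 1.05 and 0.5 (rats A and B) in Alexa647 and -0.64 and -0.32 in Alexa555. That of Cyp1b1 was 2.01 and 1.09 in rat A and 2.11 and 2.1 in rat B. The day is that of the reading, not of labelling or hybridisation. Arrays with the test RNA in Alexa647 alone called 22 genes, and those in Alexa555 alone 29, of which 20 and 27 were among the 31. Across the 31 genes the step ran in rat A from -1.5 to 1.55 and in rat B from -1.33 to 2.11, with the same sign in both rats for every gene. The calls rest on the mean of these same 2 rats, so the shared sign is no independent check.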

How the data were processed

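Per the labels, RNA of primary hepatocytes of rats A and B was hybridised to 28 2-colour Agilent arrays. Test RNA was set against DMSO RNA of the same rat in both dye orientations. Per the file headers, the deposited scanner files give each spot's mean signal and its median local background as intensity, read with Agilent Feature Extraction of another version than the submitters' processing notes give (9.1). The log ratio that the authors deposited is on the log10 scale, red over green, background-subtracted and dye-normalized, and the deposited series table holds the same values turned to test over DMSO, with differences of at most 4.995e-06. The headers date these Feature Extraction readings to 4 days, taken here as 2 sessions, and both TCDF doses of an orientation fall on the same day.

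The intensities were processed with R 4.3.3 and limma 3.58.1. Steps were normexp background correction (offset 50), loess within each array with the 2256 control spots at weight 0, removal of marked spots (1067, 0.0921%) and averaging of spots of a probe and of the orientations of a rat. A rat's value was left out where 1 orientation lacked it. Kept were 37824 of 41012 probes, which had to be well above background either in the test RNA of all 4 arrays of some group or in the DMSO RNA of 14 or more of the 28 arrays, and the brightest probe stood for a gene. Symbols came from the supplied RefSeq names, and 22505 probes had none. The 14 ratios of rats were fitted as means of 7 groups with 7 residual and 3.21 prior degrees of freedom. The step was the contrast of TCDF 10 nM minus 0.1 nM, with p-values adjusted by Benjamini-Hochberg over all genes and a threshold of 0.05. P-values rest on the spread between the 2 rats pooled over all 7 groups and moderated by limma, not on that at the TCDF doses alone. They cannot speak for more animals, and the number of arrays limits the precision. Saturation differed by dye, with 52 to 160 saturated test spots on the 8 TCDF arrays.

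On simulated data for this step (34093 genes, 50 changed per size), 72% of changes of 0.5, 94% of 1, 98% of 1.5 and 100% of 2 (log2) were called. The changed genes were drawn at random, and normal noise was drawn separately for each ratio, without deviations shared by a rat. Changes of all sizes were planted together, which gave more changed genes than the 31 calls of the data. The Benjamini-Hochberg threshold was thus met at a larger unadjusted p than in the data. The shares can be too high for the measured step and do not carry over to genes with a wide spread between rats. Nqo1, with a measured step of 1.18 ± 0.26, was not called.

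The labels give the letters A and B in every group, taken here as the same 2 rats, so the animal would pair the samples. Whether both sessions used the same animals was not tested. The deviations of the rats from the group means correlated at 0.56 between the TCDF doses, and from -0.39 to 0.56 over all pairs of groups. All correlations below 0 were between groups of different sessions, where others were above 0. The main fit had no term for the animal, and the block was an alternative, beside other backgrounds, scalings, filters, probes, orientations and left-out rats.

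Named were the 20 largest called increases and decreases with a symbol and arrays that did not overlap, all measured genes of the AHR battery and complex, and, from every further list, at most the 4 members of smallest p. Not every gene the rule picks is given, and 3 genes that enter the counts are not reported here. Members, lists and the naming rule were chosen with earlier results of these data known. Lists covered the AHR battery and complex, glucose metabolism, fatty acid and cholesterol synthesis, fatty acid oxidation, bile acids, CAR and PXR targets, cytochromes, conjugating enzymes, glutathione transferases, NRF2 targets, transcription factors and receptors, plasma proteins, growth, stress and clock genes, iron, retinoids, respiration and cell type markers. Figures were drawn with Python 3 and matplotlib.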

Additional observations from a re-analysis of the deposited data

Results flagged for a closer look

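Of 136 groups of 4 arrays examined for a lone value, 3 were singled out, and chance alone would flag about 1 in 20. In TC478611 at TCDF 10 nM, the array of rat A with the test RNA in Alexa647 had a log2 ratio of -0.5, and the others lay from -0.42 to -0.41. In Nqo1 at 10 nM, rat B with the test RNA in Alexa647 had 1.52, and the others 1.42 each. In Slc7a5 at 10 nM, rat A with the test RNA in Alexa647 had 0.19, and the others lay from -0.01 to 0.02. For Slc7a5 both orientations of rat A had a lower ratio at 10 nM than at 0.1 nM and both of rat B a higher one, with steps of -0.1 and 0.08. This difference between the rats was not tested.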

How the results depend on the processing

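The limits are those of 2 rats, of saturation in bright genes and of probes that disagree in Cyp1b1, Emp1, Acaca and St6gal1. The 31 calls became 102 with a replicate block for the animal inside each session, 14 with the second session alone, 71 with that session and the block (chosen after seeing the data), 435 with arrays fitted singly with a dye term, and 9 with Agilent's log ratio and 9 with the deposited series values. They became 0 with the TCDF groups alone and 0 under median centring, with 1332 and 4234 genes at an unadjusted p under 0.05. The main fit had 1580 of 34808. Of these counts 4234 is above, and 1332 and 1580 are below, the share of 0.05 expected if no gene differed. Leaving out libraries gave 0 to 57 calls, where a lone rat was assumed to vary like the other groups. The replicate block for the animal over all groups (40 calls, 27 of them among the 31), single orientations, background, filter and probe choices stayed within 1.5 times in number, though 18 of the 31 were among the 27 calls without background correction and 20 among the 22 with the test RNA in Alexa647 alone, and that block ended the calls of Acaca, St6gal1, BF557572 and TC488931 and no other of the 31. Of the 31 genes, those measured kept their sign in every setting (30 measured with unsaturated probes) except TC478611, at 0.06323 under median centring, where 10 of the 31 had an unadjusted p under 0.05 and the median of the 25 lower genes was -0.23 in place of -0.64. The step of Srebf1 was 0.1494 there. Blocks, fits of fewer groups and the dye term left the steps of the 31 genes unchanged, so no sign could turn in those settings. Under the stricter filter on dim probes 30 of the 31 were called. Cyp1b1, on its dimmer probe, was not (limma's adjusted p = 0.773). The 31 were called on these same arrays, so their kept signs are no independent check. Cyp1a1, saturated, was at -0.4816 with the test RNA in Alexa555 alone. Slc7a5 was at 0.03411 with Alexa647 alone, 0.02585 with Agilent's log ratio and the series values, 0.001054 without background correction, 0.05072 under median centring, and from -0.1491 to 0.134 without single libraries. The causes were not tested.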
